A study of Mus musculus with 72 samples.

Results

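The genes described here are 10 regulators of G protein signalling (RGS) that lie outside the R7 family: Rgs2, Rgs3, Rgs4, Rgs5, Rgs8 and Rgs16 of the R4 family, Rgs10, Rgs12 and Rgs14 of the R12 family, and Rgs17 of the RZ family. They were chosen by symbol, and they are 10 of the 53715 genes counted in each file. Their read counts were examined in 72 RNA-seq libraries from mice that lack Gnb5, carry a single copy of it or carry both. The question was whether any of these genes was expressed at another level once the R7 family had lost its partner.

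RGS proteins shorten G protein signals. Their shared RGS domain binds the active, GTP-bound G alpha subunit and speeds up GTP hydrolysis, which ends the signal of the receptor. The R7 members (Rgs6, Rgs7, Rgs9 and Rgs11) depend on Gbeta5, the product of Gnb5, for the stability of the protein, so animals without Gnb5 lack functional R7 complexes while other RGS proteins remain. R4 members are small proteins that act on Gi and Gq subunits, R12 members prefer Gi and, in the case of Rgs12 and Rgs14, carry further domains that bind other signalling proteins, and RZ members prefer Gz and Gi.

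The mice were males on a C57BL/6J background, 18 weeks old, and the mutation was a germline deletion of exon 3 of Gnb5 in every cell of the body. Both atria and both ventricles were collected from 6 Gnb5-/-, 6 Gnb5+/- and 6 Gnb5+/+ mice, and the whole cerebellum, the hippocampi of both hemispheres and the whole cerebral cortex from the same Gnb5-/- and Gnb5+/+ mice, which gave 12 groups of 6 libraries from 18 mice. No mouse was treated. Each library was total RNA of a whole tissue piece, so fewer cells of a type and less RNA per cell cannot be told apart in any value below.

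Libraries held 29204390 to 48807435 reads counted on genes. Gnb5 itself followed the labels: its mean normalized count was 29.7 to 104 in the Gnb5+/+ groups and 1.52 to 14.5 in the Gnb5-/- groups, and it was called lower in all 7 genotype comparisons. Atrial muscle markers summed to 21738 to 29864 in Gnb5+/+ atria against 130 to 327 in Gnb5+/+ ventricles. Ventricular markers summed to 13983 to 14739 in Gnb5+/+ ventricles and to 73.2 to 1334 in Gnb5+/+ atria. They summed to 42.5 to 686 in Gnb5+/- atria and 114 to 440 in Gnb5-/- atria. Granule cell markers summed to 2421 to 2774 in cerebellum and cortical markers to 372 to 468 in cortex. Striatal markers summed to 191 to 452 in Gnb5+/+ cortex and 323 to 442 in Gnb5-/- cortex, against 37.6 to 47.2 in Gnb5+/+ hippocampus. The part of ventricular or striatal tissue in the members' values was not tested. The hippocampal list did not separate its tissue, since it summed to 526 to 672 in hippocampus and to 716 to 820 in ventricles. Normalized counts are CPM (read counts scaled to a common library size) after TMM scaling over all 72 libraries. Values given with ± are the mean and SD over 6 mice.

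In all, 4 libraries stood apart from the rest of their tissue, and they are introduced here because several members follow them. In each library the median log2 difference from the other libraries of the tissue was taken over the shorter and over the longer genes by exonic length (the outer parts of a split into 3 equal groups). The gap between short and long genes was 1.32 in the Gnb5-/- cerebellum of mouse 12, 1.25 in the Gnb5-/- cortex of mouse 14, 0.841 in the Gnb5+/- ventricles of mouse 4 and 0.572 in the Gnb5-/- cortex of mouse 3, against -0.274 to 0.161 in the other 68 libraries. Reads outside genes made up 8.02%, 6.86%, 2.85% and 8.32% in these libraries. In cerebellum the other 11 libraries had 14.02% to 16.97%. Fold changes and sums that these libraries moved are also given without them.

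Of the 10 genes, 5 lie on mouse chromosome 1 as 2 neighbouring pairs and a single gene (GRCm38, GENCODE M21). Rgs8 (chr1:153653025-153700323, plus strand) and Rgs16 (chr1:153740349-153745468, plus strand) are separated by 40025 bp. Rgs5 (chr1:169655501-169695813, plus strand) and Rgs4 (chr1:169741477-169747642, minus strand) are separated by 45663 bp and face each other with their 3′ ends. Rgs2 is at chr1:143999338-144004161 on the minus strand. Rgs3 is at chr4:62559847-62704001 (plus), Rgs12 at chr5:34949445-35039644 (plus), Rgs10 at chr7:128373621-128418758 (minus), Rgs17 at chr10:5825663-5922400 (minus) and Rgs14 at chr13:55369732-55384687 (plus). Antisense genes cover 0.726% of the exonic bases of Rgs8, 5.50% of Rgs12 and 10.1% of Rgs16, and the strand setting of the counting is not given in the sources used here, so a small part of these counts may belong to the antisense partner.

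The promoters of both neighbouring pairs are shown because the tissue that leads differs within one pair and is the same in the other. Each is the 250 bases before a RefSeq start (build GRCm38.p6), the first of 3 listed starts for Rgs8, written 5′ to 3′ on the strand of the gene. Capitals mark every match, on either strand, to the TATA box TATAAA, the CCAAT box, the GC box GGGCGG and the short cyclic AMP response element TGACG. The windows are chr1:169747643-169747892 (Rgs4), chr1:169655251-169655500 (Rgs5), chr1:153652787-153653036 (Rgs8) and chr1:153740103-153740352 (Rgs16).
Rgs4: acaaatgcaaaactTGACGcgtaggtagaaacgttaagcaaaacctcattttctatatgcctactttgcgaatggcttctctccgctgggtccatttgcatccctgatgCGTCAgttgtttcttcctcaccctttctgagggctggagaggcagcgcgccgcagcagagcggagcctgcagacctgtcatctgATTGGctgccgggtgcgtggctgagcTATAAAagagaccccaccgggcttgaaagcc
Rgs5: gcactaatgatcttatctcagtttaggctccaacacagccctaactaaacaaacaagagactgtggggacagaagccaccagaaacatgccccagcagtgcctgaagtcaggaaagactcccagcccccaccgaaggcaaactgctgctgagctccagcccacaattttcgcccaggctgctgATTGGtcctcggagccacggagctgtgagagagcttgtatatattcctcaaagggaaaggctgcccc
Rgs8: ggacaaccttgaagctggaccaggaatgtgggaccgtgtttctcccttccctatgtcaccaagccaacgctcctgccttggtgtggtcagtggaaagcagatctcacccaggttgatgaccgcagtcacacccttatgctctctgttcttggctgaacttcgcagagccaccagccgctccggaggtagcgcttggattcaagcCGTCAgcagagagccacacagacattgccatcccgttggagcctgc
Rgs16: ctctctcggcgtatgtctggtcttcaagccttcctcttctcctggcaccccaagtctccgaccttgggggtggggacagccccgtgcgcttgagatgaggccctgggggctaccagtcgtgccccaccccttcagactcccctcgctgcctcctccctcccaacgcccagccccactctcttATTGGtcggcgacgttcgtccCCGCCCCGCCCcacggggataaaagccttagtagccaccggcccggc
Rgs4 held a TATAAA match whose first base lay 31 bases before the start, a CCAAT match and 2 TGACG matches. Rgs5 held a single CCAAT match, and the Rgs8 window shown a single TGACG match. The windows before the other starts of Rgs8 (chr1:153665024-153665273 and chr1:153665423-153665672) each held a CCAAT match and no TGACG. Rgs16 held a CCAAT match and 2 GGGCGG matches that overlap. Of 32851 RefSeq promoter windows of the same length, 12.4% held TATAAA, 33.8% CCAAT, 32.7% GGGCGG and 17.8% TGACG. The full cyclic AMP response element TGACGTCA (which contains TGACG, and was present in 1.55% of windows), CACGTG (6.02%) and GCGGGGGCG (2.57%) were also searched on both strands, and none was found in these 4 windows. The windows held 13 CpG dinucleotides in Rgs4, 4 in Rgs5, 9 in Rgs8 and 17 in Rgs16, against a median of 6 over all windows. A match describes these letters only.

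The 10 genes had sharply different tissue profiles in Gnb5+/+ mice, and a different member led in different tissues. Per exonic length, Rgs5 led in the heart with 68.4 RPKM in atria and 188 RPKM in ventricles, Rgs8 led in cerebellum with 128 RPKM, and Rgs4 led in hippocampus and cortex with 38.3 and 93.9 RPKM. The leading gene made up 55.3% of the summed RPKM of the 10 genes in atria, 85.2% in ventricles, 76.5% in cerebellum, 33.9% in hippocampus and 54.3% in cortex. The hippocampus was the most even of the 5 tissues, with Rgs14 (18.9 RPKM) and Rgs5 (18.3 RPKM) next after Rgs4. The mean levels of the 10 genes summed to 221 RPKM in ventricles, 173 in cortex, 168 in cerebellum, 124 in atria and 113 in hippocampus.

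**Figure D1:**
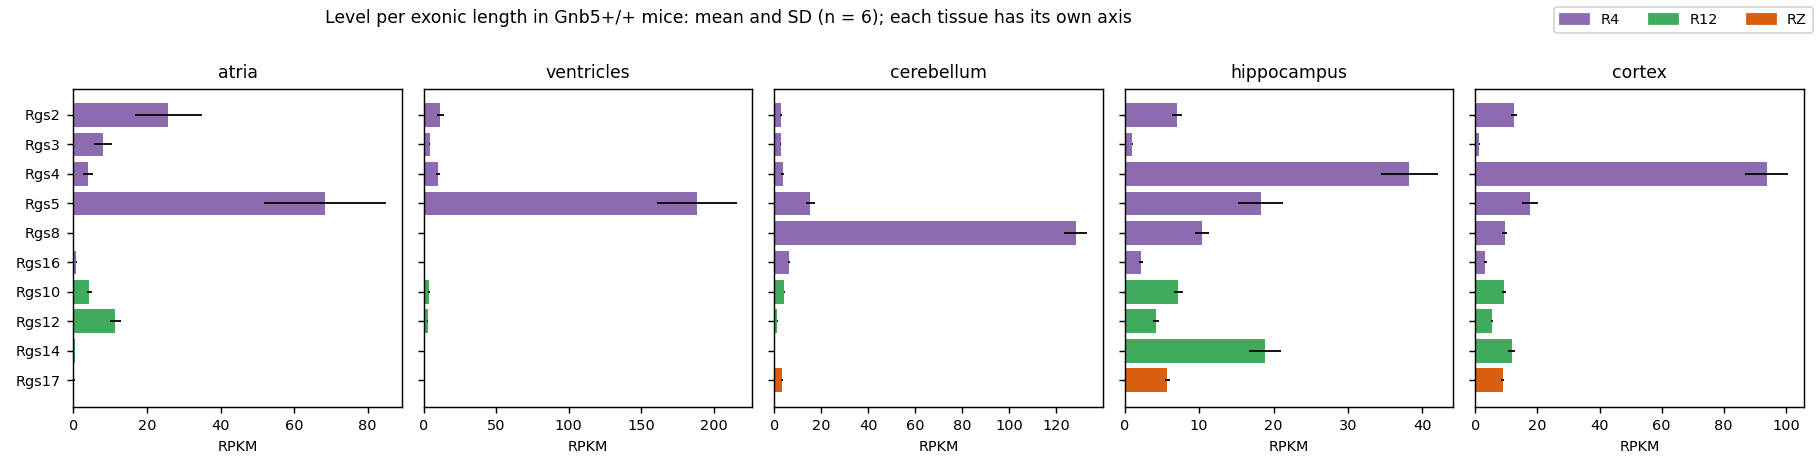
Level per exonic length (RPKM, linear axis, a separate scale for each tissue) of the 10 genes in Gnb5+/+ mice, with bars for the mean and lines for the SD over 6 mice, coloured by RGS family. Rgs5 is the longest bar in atria and ventricles, Rgs8 in cerebellum, and Rgs4 in hippocampus and cortex.

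Tissues of the same 6 Gnb5+/+ mice were compared in pairs with edgeR's quasi-likelihood test, with the mouse as a block and p-values adjusted by Benjamini-Hochberg over 19477 genes. Tissue differences were the rule for these genes and for all genes. Atria differed from cerebellum at 8 of the 10 genes (87.3% of all genes called), from hippocampus at 10 (87.6%) and from cortex at 10 (88.1%), and ventricles at 10 (87.3%), 10 (87.8%) and 9 (88.3%). Atria and ventricles differed at 7 of 10 (53.6% of all genes), cerebellum and hippocampus at 9 (70.8%), cerebellum and cortex at 9 (71.8%), and hippocampus and cortex at 7 (37.7%). Rgs8 passed the low-count filter through its brain libraries, so its calls between heart and brain follow from the filter. Rgs14, with 3 to 16 reads per cerebellum library, passed it through other tissues, so its calls against cerebellum follow from it as well. The median gene was lower in heart than in brain by 0.15 to 0.27 on the log2 scale, which bears on small heart against brain differences.

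Rgs2, a fast-responding R4 member that acts on Gq signals in heart and vessels, was highest in Gnb5+/+ atria. The 6 atrial libraries ran from 53.6 through a median of 97.05 to 139 normalized counts, cortex averaged 45.3 ± 3.81, ventricles 41.6 ± 8.03, hippocampus 25.5 ± 2.24 and cerebellum 10.2 ± 1.34. Atria exceeded cortex by 1.02 on the log2 scale (SE 0.14, adjusted p = 1.07e-07), and every mouse had more in atria. Cortex and ventricles did not differ beyond their spread (adjusted p = 0.217), while ventricles exceeded hippocampus and hippocampus exceeded cerebellum in 6 of 6 mice.

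Rgs3, an R4 member with several long isoforms, was also highest in atria, at 87.0 ± 26.6 normalized counts with a range from 57.7 to 128. Ventricles followed with 43.2 ± 5.73, cerebellum with 29.3 ± 3.48, cortex with 13.1 ± 1.79 and hippocampus with 10.6 ± 0.806. Atria and ventricles did not overlap (log2 difference 1.03, SE 0.12, adjusted p = 1.86e-08). Cortex and hippocampus were not separated by the test (adjusted p = 0.0665), although cortex was higher in 6 of 6 mice.

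Rgs4 and Rgs5, the neighbours on chromosome 1, had different leading tissues. Rgs4, known as a neuronal RGS protein, reached 257 to 312 normalized counts in cortex (mean 291 ± 21.3) and 119 ± 11.8 in hippocampus. In the other tissues it was lower, at 29.8 ± 3.72 in ventricles, 12.6 ± 4.28 in atria and 10.9 ± 1.51 in cerebellum, so that cortex was 26.8-fold above cerebellum. Cortex exceeded hippocampus by 1.28 on the log2 scale (SE 0.12, adjusted p = 8.09e-10), ventricles exceeded atria by 1.22 (SE 0.13, adjusted p = 4.65e-09), and atria and cerebellum did not differ beyond their spread (adjusted p = 0.367).

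Rgs5 is known as a marker of pericytes and vascular smooth muscle. It was highest in ventricles, with 744 to 1015 normalized counts (mean 856 ± 126), followed by 311 ± 75.7 in atria, 83.1 ± 13.6 in hippocampus, 79.9 ± 11.6 in cortex and 69.9 ± 9.32 in cerebellum. Ventricles exceeded atria by 1.42 on the log2 scale (SE 0.092, adjusted p = 2.95e-13), and no ventricular library fell to the atrial range. The 3 brain tissues were not separated by edgeR (adjusted p = 0.0631 to 0.585), although cortex was above cerebellum in 6 of 6 mice. Hippocampus against cerebellum passed the threshold with RLE factors (adjusted p = 0.0205), without the low-count filter (0.0401) and with DESeq2 (0.0221). A list of 7 other pericyte and mural cell markers followed a similar order: its summed normalized count was 825 to 1056 in ventricles, 230 to 322 in atria and 111 to 162 in the brain tissues. The part of these cells in the Rgs5 level was not tested.

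Rgs8, an R4 member known from Purkinje cells, was the gene with the widest range. In Gnb5+/+ cerebellum the 6 libraries held 67831 to 82562 reads and 1201 to 1305 normalized counts (mean 1238 ± 46.9). Hippocampus and cortex held 100.2 ± 8.90 and 91.03 ± 7.47, which did not differ beyond their spread (adjusted p = 0.292). Cerebellum exceeded hippocampus by 3.69 on the log2 scale (SE 0.12, adjusted p = 2.02e-20). In the heart, Rgs8 was close to zero: the 6 atrial libraries held 18 reads together (95% exact Poisson interval 10.7 to 28.4, counting error only) and the 6 ventricular libraries 5 reads (1.62 to 11.7), so no fold is given for them. The Purkinje cell list summed to 2084 to 2279 in cerebellum and to 107 to 128 in hippocampus and cortex.

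Rgs16, its neighbour, had the same leading tissue at a much lower level. It averaged 14.5 ± 1.17 normalized counts in cerebellum, 7.45 ± 1.05 in cortex, 5.07 ± 0.626 in hippocampus, 1.93 ± 0.540 in atria and 1.89 ± 0.705 in ventricles. Cerebellum did not overlap cortex (log2 difference 1.04, SE 0.13, adjusted p = 3.84e-08), and atria and ventricles did not differ beyond their spread (adjusted p = 0.665). Per length, the cerebellum held 6.22 RPKM of Rgs16 against 128 RPKM of Rgs8.

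Rgs10, a small R12 member prominent in microglia and immune cells, had the narrowest range, 2.66-fold from its highest to its lowest tissue. Its means were 15.9 ± 1.10 normalized counts in cortex, 12.3 ± 1.10 in hippocampus, 7.48 ± 1.01 in atria, 7.16 ± 0.430 in cerebellum and 5.99 ± 1.22 in ventricles. Cortex exceeded hippocampus by 0.35 on the log2 scale (SE 0.095, adjusted p = 0.00399), and atria and cerebellum did not differ beyond their spread (adjusted p = 0.980). The microglia and macrophage list summed to 240 to 283 in cortex, 223 to 253 in hippocampus, 152 to 190 in atria, 86.5 to 110 in ventricles and 70.8 to 79.3 in cerebellum. The part of these cells in the Rgs10 level was not tested.

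Rgs12, a large R12 member with domains for Ras and G alpha, was called between all 10 tissue pairs. Gnb5+/+ atria held 80.2 to 109 normalized counts (mean 97.005 ± 11.7), cortex 45.2 ± 2.34, hippocampus 35.2 ± 3.52, ventricles 23.3 ± 3.67 and cerebellum 10.4 ± 1.299. Neighbours in this order did not overlap in any library and were ordered alike in 6 of 6 mice. The smallest step was that from cortex to hippocampus, 0.35 on the log2 scale (SE 0.076, adjusted p = 0.000568).

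Rgs14, known from CA2 neurons of the hippocampus, was almost restricted to hippocampus and cortex. Hippocampus held 65.9 to 89.5 normalized counts (mean 80.1 ± 9.14) and cortex 45.6 to 57.7 (mean 49.4 ± 4.44), without overlap (log2 difference 0.71, SE 0.11, adjusted p = 5.87e-06). Atria held 1.79 ± 0.448, ventricles 1.32 ± 0.166 and cerebellum 0.139 ± 0.0904, the last from only 3 to 16 reads per library. The CA2 list summed to 100.2 to 110 in hippocampus and 75.9 to 108 in cortex, but also to 81.3 to 99.1 in cerebellum, where Rgs14 was near zero.

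Rgs17, the RZ member, was a brain gene in these tissues. Its means ran in the order cortex (72.8 ± 4.14 normalized counts), hippocampus (47.3 ± 2.83), cerebellum (27.5 ± 3.95), atria (2.31 ± 0.753) and ventricles (1.90 ± 0.423). The brain tissues differed from each other, with a step of 0.61 from hippocampus to cortex (SE 0.092, adjusted p = 5.79e-06) and of 0.74 from cerebellum to hippocampus (SE 0.093, adjusted p = 6.56e-08) on the log2 scale. Atria and ventricles did not differ beyond their spread (adjusted p = 0.0871).

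**Figure D2:**
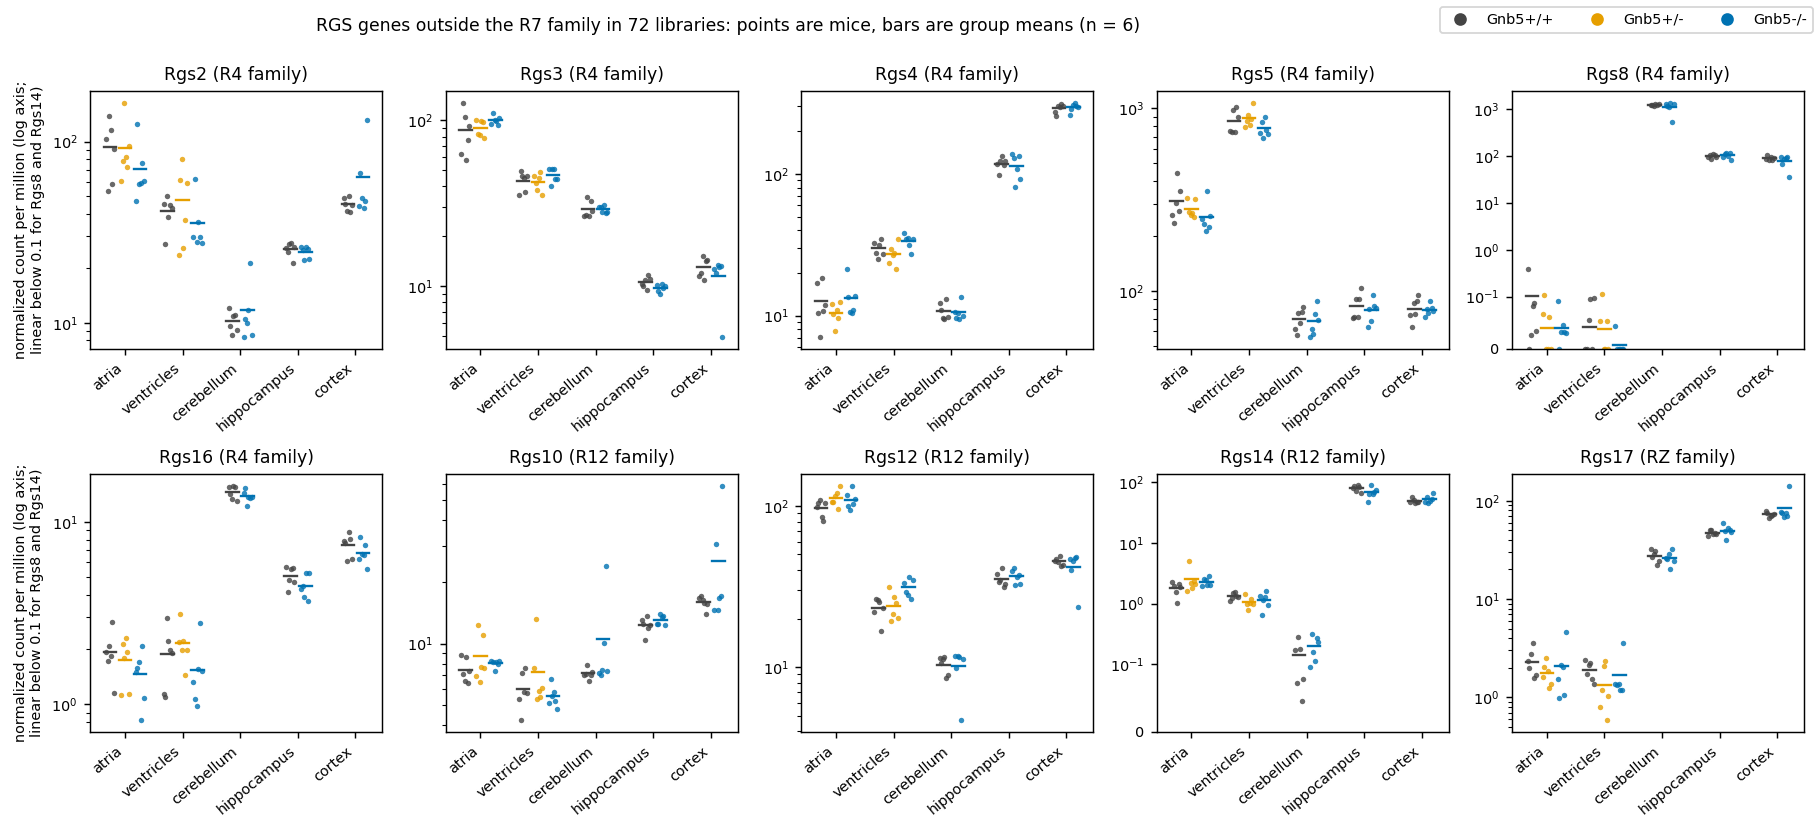
Normalized counts (CPM) of the 10 genes (log axes, linear below 0.1 for Rgs8 and Rgs14) in all 72 libraries, with a point for each mouse and a bar for each group mean, by tissue and genotype. The tissue sets the level of each gene, and genotype groups of a tissue overlap, except Rgs12 in Gnb5-/- ventricles, whose lowest library (26.6) lies above the highest Gnb5+/+ library (26.3).

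Against these tissue differences, the loss of Gnb5 left no member called at an adjusted p below 0.05 in any tissue. In the Gnb5-/- comparisons the count was 0 of 9 tested in atria (0.253% of all genes tested were called), 0 of 9 in ventricles (0.188%), 0 of 10 in cerebellum (0.0817%), 0 of 10 in hippocampus (0.165%) and 0 of 10 in cortex (0.0557%). In Gnb5+/- mice it was 0 of 9 in atria (0.0124%) and 0 of 9 in ventricles (0.0202%). Rgs8 was under the low-count filter in the heart. DESeq2 also called 0 in each, where it called 0.62%, 0.288%, 0.307%, 0.514% and 0.141% of all genes in the same order of tissues, and 0.0268% and 0.0106% in Gnb5+/- atria and ventricles. With so few genes called anywhere, a count of 0 among 10 is what the background gives. At an unadjusted p below 0.05, edgeR's quasi-likelihood test marked Rgs12 in Gnb5-/- ventricles (4.78% of all genes) and Rgs12 in Gnb5+/- atria (7.22%), 1 of 9 in each, and none in Gnb5-/- atria (8.15%), cerebellum (5.85%), hippocampus (7.7%) and cortex (7.39%) or in Gnb5+/- ventricles (4.84%).

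The intervals show how large a change these libraries could have missed. In hippocampus, the 95% intervals of the 10 log2 fold changes ran from -0.49 at the lowest to 0.23 at the highest. They reached from -0.96 to 0.87 in Gnb5-/- atria, from -0.86 to 0.70 in Gnb5-/- ventricles, from -0.51 to 1.46 in cerebellum and from -0.58 to 1.48 in cortex. The upper limit in cerebellum was that of Rgs14, with only 3 to 19 reads per library. In cortex it was that of Rgs10, whose log2 fold change of 0.73 was 0.23 without mouse 14. The Gnb5+/- comparisons had the lowest limits, with intervals between -1.05 and 1.00 for atria and between -1.20 and 0.76 for ventricles. The median log2 fold change over the members tested was 0.10 in atria, -0.15 in ventricles, -0.03 in cerebellum, -0.06 in hippocampus and 0.02 in cortex, where the median over all genes was within 0.01 of 0 in each.

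**Figure D3:**
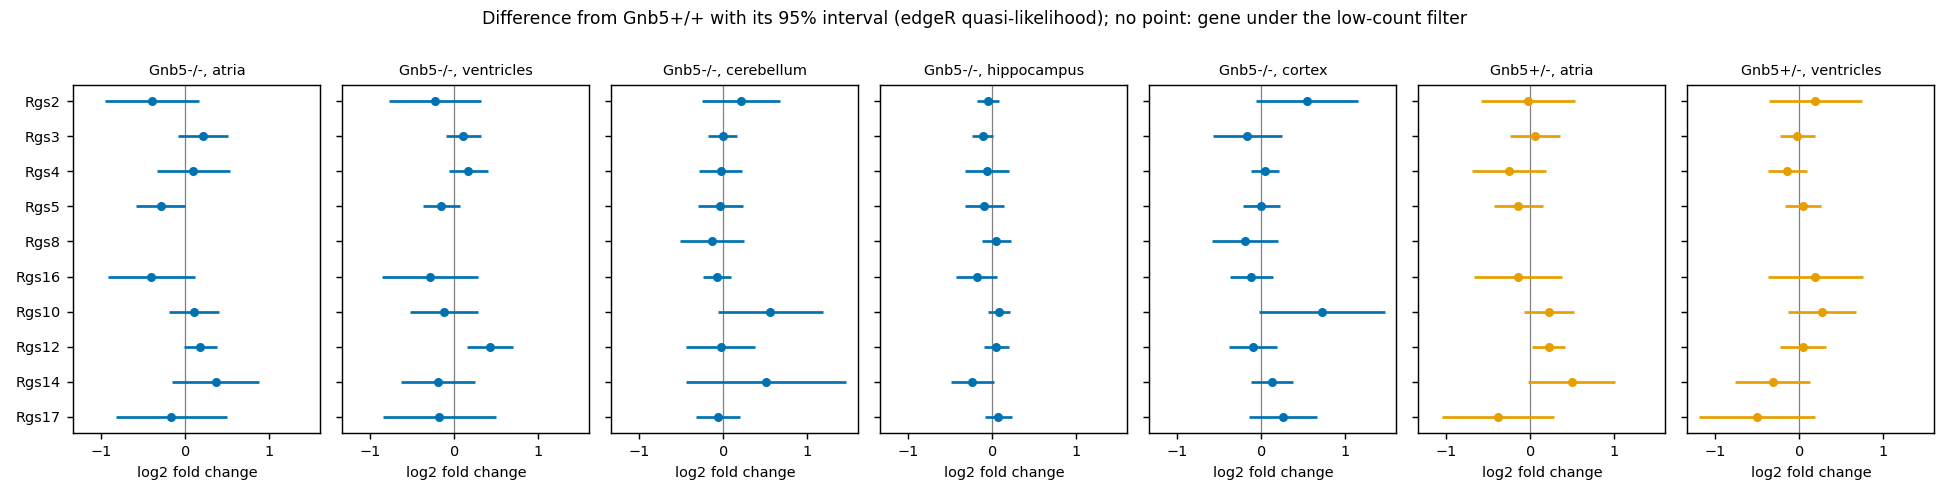
Log2 fold change of each gene against Gnb5+/+ in the 7 genotype comparisons, with points for the estimate and lines for its 95% interval from edgeR's quasi-likelihood fit. All intervals include 0 except those of Rgs12 in Gnb5-/- ventricles (0.15 to 0.70) and in Gnb5+/- atria (0.03 to 0.42), and Rgs8 has no point in the heart.

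Rgs12 in ventricles had the highest fold change of the members in the Gnb5-/- heart. The Gnb5-/- libraries held 26.6, 28.1, 29.4, 33.4, 34.8 and 36.3 normalized counts, and the Gnb5+/+ libraries 16.6, 21.9, 23.4, 25.4, 26.01 and 26.3. The groups did not overlap, which held for 1 of the 9 members tested and for 0.538% of all genes. In the other 6 comparisons no member was without overlap, against 0.612% of all genes in Gnb5-/- atria, 1.1% in cerebellum, 0.648% in hippocampus, 0.601% in cortex, 0.198% in Gnb5+/- atria and 0.168% in Gnb5+/- ventricles. The log2 fold change was 0.43 (SE 0.13, 95% interval 0.15 to 0.70), and its adjusted p over 14866 genes in edgeR was 0.477. An exact two-sided permutation test of the 12 mice gave p = 0.00216, the smallest it can give, as 1 of 70 such tests of members. The Gnb5+/- libraries (19.2 to 31.5) lay across both groups. The length gap of the Gnb5-/- ventricular libraries (-0.0935 to 0.0399) lay near that of the Gnb5+/+ libraries (-0.0757 to -0.00721).

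In atria, Rgs12 averaged 110 ± 13.9 normalized counts without Gnb5, 113 ± 12.9 with a single copy and 97.005 ± 11.7 with both. The groups overlapped, and the log2 fold changes were 0.18 (SE 0.094, adjusted p = 0.679) and 0.22 (SE 0.094, adjusted p = 0.655) in edgeR. In brain the Gnb5-/- and Gnb5+/+ means were 36.6 ± 3.46 and 35.2 ± 3.52 in hippocampus, 42.0 ± 9.45 and 45.2 ± 2.34 in cortex, and 10.1 ± 2.76 and 10.4 ± 1.299 in cerebellum.

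No member was called in the heart, and for the members other than Rgs12 the groups overlapped in both chambers. Atrial Rgs5 averaged 254 ± 51.6 in Gnb5-/- mice against 311 ± 75.7 in Gnb5+/+ mice (-0.29 on the log2 scale, SE 0.14, adjusted p = 0.614 in edgeR), with 5 of 6 Gnb5-/- mice below the Gnb5+/+ mean, and in ventricles 775 ± 77.0 against 856 ± 126. The pericyte and mural list summed to 267 ± 19.7 against 277 ± 39.0 in atria. In ventricles it was higher in Gnb5-/- mice, at 1101 ± 69.4 against 971 ± 86.3. The ventricular muscle list summed to 240 ± 121 in Gnb5-/- atria against 541 ± 512 in Gnb5+/+ atria. Its part in the atrial Rgs5 level was not tested. Rgs2 averaged 71.0 ± 27.8 against 93.7 ± 33.2 in atria and 35.6 ± 13.5 against 41.6 ± 8.03 in ventricles. A list of 8 immediate early genes was lower beside it, with a summed normalized count of 82.4 to 259.8 against 117 to 741 in atria and 78.1 to 156 against 73.96 to 419 in ventricles, and none of its genes was called (smallest adjusted p 0.249 and 0.279 in edgeR). The part of this in the Rgs2 level was not tested. Of the Gnb5-/- mice, 1, mouse 3, held the highest value of its group in both atria (124) and ventricles (62.4). Rgs14 was above the Gnb5+/+ mean in 6 of 6 Gnb5-/- atria (2.30 ± 0.355 against 1.79 ± 0.448), a gene of only 25 to 96 reads per library in these groups (adjusted p = 0.789 in edgeR). Its exact permutation p was 0.0476 there and also in Gnb5+/- ventricles, where it was lower than in Gnb5+/+ ventricles (1.06 ± 0.226 against 1.32 ± 0.166), each among the same 70 tests. Rgs17 was low in the heart, and mouse 14 was its highest Gnb5-/- mouse in atria (4.65 against 0.996 to 2.13 in the others) and in ventricles (3.55 against 1.18 to 1.38).

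In cerebellum and cortex, the fold changes of several members rested on the libraries with a length gap. In Gnb5-/- cortex, Rgs10 read 14.6, 14.7, 16.6, 16.98, 30.5 and 58.7 normalized counts against 13.9 to 17.04 in Gnb5+/+ cortex, and the 2 high values were those of mice 3 and 14. The log2 fold change of 0.73 (SE 0.35, adjusted p = 0.474 in edgeR) was 0.23 without mouse 14 and -0.02 without both. Rgs2 in cortex was 132 in mouse 14 and 66.8 in mouse 3 against 42.9 to 49.1 in the other 4 Gnb5-/- mice, and its log2 fold change of 0.54 was 0.14 without mouse 14 and 0.02 without both. Rgs17 read 142 in mouse 14 and 69.04 to 76.96 in the other 5, and its log2 fold change of 0.26 became 0.01 without mouse 14.

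Mouse 14 held the highest of the 12 cortex values for Rgs2, Rgs10, Rgs14 and Rgs17 and the lowest for Rgs3, Rgs8, Rgs12 and Rgs16. Rgs4 (297) and Rgs5 (78.0) lay within the range of the others. Mouse 12 held the highest of the 12 cerebellum values for Rgs2, Rgs4, Rgs5 and Rgs10 and the lowest for Rgs8 and Rgs12. Rgs8 was 528 in this library and 1142 to 1331 in the other 5 Gnb5-/- mice, and its log2 fold change of -0.13 was 0.01 without it. Rgs10 was 23.9 against 7.05 to 10.1, and its log2 fold change of 0.56 (adjusted p = 0.583 in edgeR) was 0.13 without it. Marker lists moved in the same libraries: the Purkinje cell list read 338 in the cortex of mouse 14 against 111 to 194 in the other 11 cortex libraries, and in the cerebellum of mouse 12 the Purkinje cell list read 3065 against 2084 to 2548 in the other 11 cerebellum libraries, the hippocampal list 68.5 against 191 to 265. The microglia and macrophage list was highest in both libraries, as was Rgs10, at 309 against 240 to 291 in cortex and 106 against 67.4 to 87.4 in cerebellum. The CA2 list was also highest in both, at 205 against 75.9 to 126 and 162 against 81.3 to 113. Rgs8, known from Purkinje cells, was lowest in both libraries, and the Purkinje cell list was highest in both. The part of these cells in the members' values, and of the length gap in the summed lists, was not tested.

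The members highest in these libraries were not all short. Rgs10 has 1711 exonic bases, the fewest of the 10 genes. Rgs2 has 3627, above the limit of the shorter group (3361 in cortex and 3385 in cerebellum). Of the others that were highest, Rgs17 has 8298 and Rgs14 has 4239 (cortex of mouse 14). Rgs5 has 4546 and Rgs4 has 3098 (cerebellum of mouse 12). Rgs16, with 2339, and Rgs3, with 10801, were lowest in the cortex of mouse 14. Of the genes that were low in both libraries, Rgs8 has 9640 exonic bases and Rgs12 has 8487. In the Gnb5+/- ventricles of mouse 4, Rgs10 was the highest of 18 ventricular values (13.2 against 4.26 to 7.59), and its log2 fold change of 0.27 in Gnb5+/- ventricles was 0.03 without this library. The part of the length gap in these values was not tested.

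**Figure D4:**
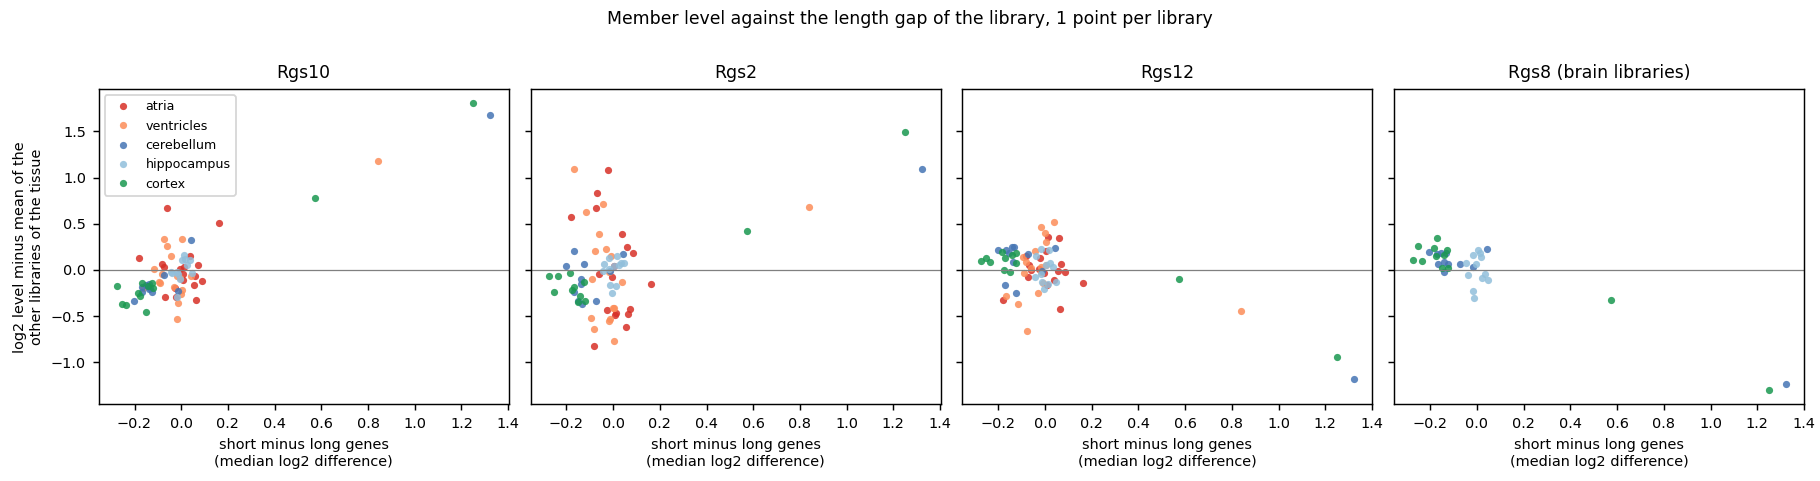
Level of Rgs10, Rgs2, Rgs12 and Rgs8 in each library as log2 difference from the mean of the other libraries of its tissue (vertical axis), against the median log2 gap between short and long genes in that library (horizontal axis), with 1 point per library coloured by tissue and heart libraries left out for Rgs8. The 4 points right of 0.5 are the cerebellum of mouse 12, the cortex of mice 14 and 3 and the Gnb5+/- ventricles of mouse 4, with Rgs10 above 0 and Rgs12 below 0 in each of them.

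**Figure D5:**
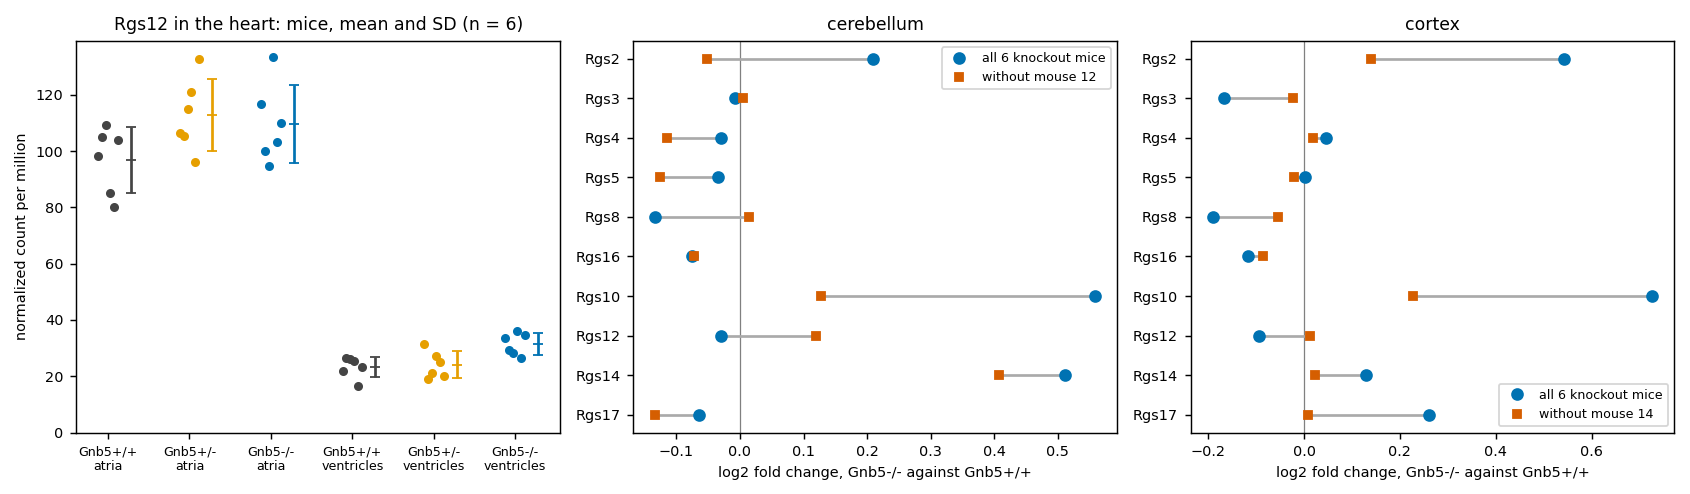
Left, normalized counts of Rgs12 in the heart by genotype, with a point for each mouse and the mean and SD beside them. Middle and right, log2 fold change of the 10 genes in Gnb5-/- cerebellum and cortex with all 6 Gnb5-/- mice (circles) and without mouse 12 or mouse 14 (squares): the Rgs10 value moves from 0.56 to 0.13 in cerebellum and from 0.73 to 0.23 in cortex.

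Hippocampus had no library of this kind. The SE of the fold change was smaller there than in every other tissue for Rgs2, Rgs3, Rgs8, Rgs10, Rgs12 and Rgs17, but not for Rgs4, Rgs5, Rgs14 and Rgs16. Rgs14 averaged 68.1 ± 14.02 in Gnb5-/- and 80.1 ± 9.14 in Gnb5+/+ mice, with 5 of 6 Gnb5-/- mice below the Gnb5+/+ mean, overlapping groups, and edgeR put the difference at -0.23 on the log2 scale (SE 0.12, 95% interval -0.49 to 0.02, adjusted p = 0.684). Rgs3 was below the Gnb5+/+ mean in 6 of 6 Gnb5-/- mice, at 9.81 ± 0.510 against 10.6 ± 0.806, a log2 difference of -0.11 in edgeR (SE 0.060, adjusted p = 0.684). Rgs4, the leading member there, was 114 ± 24.1 against 119 ± 11.8, and Rgs10 was 13.04 ± 0.739 against 12.3 ± 1.10.

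Whether the Gnb5-/- effect differed between tissues was tested as an interaction in edgeR over the 60 libraries of these 2 genotypes, with the mouse as a block. No member was called for a difference among any of the 5 tissues (0.241% of all genes called, and 7.48% at an unadjusted p below 0.05, among them Rgs2 and Rgs12), between ventricles and atria (0.00491%, and 4.4% at an unadjusted p below 0.05) or between heart and brain (0.408%). At an unadjusted p below 0.05, the heart minus brain contrast marked 3 of 10 members where 13.3% of all genes were marked: Rgs12 (difference of log2 fold changes 0.34, SE 0.12, adjusted p = 0.238), Rgs2 (-0.53, SE 0.19, adjusted p = 0.266) and Rgs3 (0.28, SE 0.12, adjusted p = 0.325). Without the cortex of mice 14 and 3 and the cerebellum of mouse 12, Rgs12 was at 0.23 (SE 0.070, adjusted p = 0.108). Rgs2 was at -0.34 (SE 0.14, adjusted p = 0.305) and Rgs3 at 0.22 (SE 0.088, adjusted p = 0.311), and no member was called. Rgs8 was marked as well (-1.67, SE 0.73, adjusted p = 0.352), but it entered this fit through its brain libraries. Its Gnb5-/- and Gnb5+/+ libraries held 9 and 18 reads together in atria and 1 and 5 in ventricles. Its heart side is thus near zero, and nothing is read from its mark. Among any of the 5 tissues, Rgs12 and Rgs14 were then marked and Rgs2 was not, and between ventricles and atria Rgs12 was marked. The shares of all genes called or marked in the fit without these libraries are not given, so nothing is read from its counts. DESeq2 was not run for the interaction.

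The summed RPKM of the 10 genes, dominated by the leading gene of each tissue, overlapped between genotypes everywhere. It was 108 ± 12.8 in Gnb5-/- against 124 ± 22.2 in Gnb5+/+ atria, 204 ± 19.5 against 221 ± 29.6 in ventricles, 158 ± 24.6 against 168 ± 5.00 in cerebellum, 108 ± 7.41 against 113 ± 5.00 in hippocampus and 185 ± 22.0 against 173 ± 6.51 in cortex. Without mouse 12 the Gnb5-/- cerebellum had 167 ± 10.02 (5 mice), and without mice 14 and 3 the Gnb5-/- cortex had 174 ± 10.1 (4 mice). Gnb5+/- mice had 119 ± 9.07 in atria and 229 ± 26.7 in ventricles.

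Further RGS genes and G alpha genes held no call in edgeR either, where few genes were called anywhere (shares of all genes above). Of the 7 further RGS genes outside the R7 family (Rgs1, Rgs13, Rgs18, Rgs19, Rgs20, Rgs21 and Rgs22), 2 to 4 passed the filter in each tissue and none was called in any of the 7 genotype comparisons. Rgs20 had the highest level of this list, 19.5 ± 0.918 normalized counts in Gnb5+/+ cortex, and Rgs21 was at 0 in every Gnb5+/+ group. None of the R7 genes (3 or 4 of 4 tested) and none of 7 G alpha genes (all tested) was called, with edgeR and 6 mice per group. These lists were read in edgeR only. The paper, which used DESeq2, reported Gnai2, a gene of the G alpha list, as differentially expressed in Gnb5-/- cerebellum. The R7 genes summed to 36.1 ± 5.03 normalized counts in Gnb5-/- against 28.1 ± 5.28 in Gnb5+/+ ventricles, where the smallest adjusted p among them was 0.431, and to 138 ± 7.45 against 127 ± 7.98 in atria. In brain the sums were 69.4 ± 4.87 against 73.2 ± 3.92 in cerebellum, 118 ± 2.74 against 116 ± 6.08 in hippocampus and 214 ± 34.9 against 231 ± 18.7 in cortex.

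Genes most like each member were named as a description, by Pearson's r of log2 normalized counts after the group means were subtracted, over 72 libraries and without the cortex of mouse 14 and the cerebellum of mouse 12 (70 libraries). Libraries of a mouse and of a tissue share their source, so no p is given. For Rgs10 the most similar gene was Cstb (r = 0.907, and 0.783 in 70 libraries). For Rgs12 it was Dgkq (0.834), replaced by Rab11fip5 in 70 libraries (0.659). For Rgs2 it was Pnrc1 (0.687), replaced by Nr4a2, Errfi1 and Sik1 in 70 libraries (0.678, 0.643 and 0.642), all of them known as genes induced rapidly by stimulation. For Rgs5 it was Adgrl4 (0.622, and 0.611 in 70 libraries), an endothelial receptor.

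For Rgs17 the list held Tmx4 (0.603), Bhlhe41 (0.597) and Hlf (0.535), of which the last and Bhlhe41 are known as genes of the circadian system, and Hlf was still in the list in 70 libraries (0.587). For Rgs14 it held Plin2 (0.512) and Ddn (0.505), with Ddn, a dendritic protein, first in 70 libraries (0.572). For Rgs4 it was Dgkb (0.567, and 0.578 in 70 libraries), for Rgs8 Pianp (0.623, and 0.588), for Rgs16 Ppan (0.528) and for Rgs3 Sirt6 (0.771), replaced by Polm in 70 libraries (0.630). Between members, Rgs10 and Rgs12 had r = -0.65 over 72 libraries and -0.26 over 70.

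Over the 12 group means, where 12 points stand for 5 tissues, likeness follows the tissue profile. Rgs8 and its neighbour Rgs16 had r = 0.968, and Rgs4 and its neighbour Rgs5 had r = -0.357. Rgs8 and Rgs17, on different chromosomes, had 0.923, and Rgs8 was near zero in the heart groups. With group means subtracted, over 72 libraries, the neighbours had 0.213 (Rgs8 and Rgs16) and 0.225 (Rgs4 and Rgs5). The gene most like Rgs8 was Nsg1 (0.999), that most like Rgs14 was Bcl11b (0.995), that most like Rgs4 was Fscn1 (0.992) with the serotonin receptor Htr2a next (0.992), and that most like Rgs5 was Rpl3l (0.998), a ribosomal protein of striated muscle.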

How the data were processed

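RNA from 5 tissues of 18 mice was sequenced as 72 stranded total RNA libraries (single-end). The authors trimmed reads with cutadapt 1.8, removed ribosomal reads, aligned to GRCm38 with STAR 2.5.3a and counted reads per Ensembl gene with htseq-count 0.9.1. The deposited values are raw counts, 1 file per library. Of 53715 gene identifiers, 53620 matched GENCODE M21, from which symbols, exonic lengths and positions were taken.

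Each tissue had its own edgeR 4.0.16 fit of genotype (R 4.3.3; TMM, filterByExpr with a count minimum of 10, quasi-likelihood test, no other term), and a gene was called below 0.05 after Benjamini-Hochberg adjustment across every gene in that fit. Heart fits held 3 genotypes. Tissues of Gnb5+/+ mice and interactions were fitted with mouse as a blocking factor, taken from the mouse numbers in the labels. Same-mouse libraries of different tissues deviated together (r from 0.096 to 0.522, and each of 6 libraries correlated best with its own mouse in all 10 tissue pairs). The SE of a log2 fold change was derived from it and its F statistic. RPKM used merged exonic length. Depth differed between tissues, with a median of 35038930 counted reads in heart and 42339164 in brain libraries. Spread between mice includes counting error.

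The members and gene lists were chosen with earlier results of these data known. All 10 members were described in every comparison, genes of other lists only where called or at an extreme level, and likeness by the 3 highest r. Alternatives were DESeq2 1.42.0, RLE factors, no low-count filter, the replicate number as a block, 2 genotypes only, and fits without a library. Scripts were tested on simulated data.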

Additional observations from a re-analysis of the deposited data

Results flagged for a closer look

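A sample lay far from the others of its group, by the gap to its nearest neighbour over the range of the 6 mice, in 20 of 113 groups of a gene and a tissue and genotype (above the 95% critical value of Dixon's test). Chance alone flags about 1 in 20 groups, or 5.65 of 113, and genes within a library are not independent.

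Of the 20, 10 came from 2 libraries. In the Gnb5-/- cortex of mouse 14 these were Rgs2 at 132 normalized counts (the others 42.9 to 66.8), Rgs3 at 4.97 (12.0001 to 13.5), Rgs10 at 58.7 (14.6 to 30.5), Rgs12 at 23.6 (40.3 to 48.2) and Rgs17 at 142 (69.04 to 76.96). In the Gnb5-/- cerebellum of mouse 12 they were Rgs2 at 21.4 (8.38 to 11.8), Rgs4 at 13.6 (9.52 to 10.6), Rgs8 at 528 (1142 to 1331), Rgs10 at 23.9 (7.05 to 10.1) and Rgs12 at 4.70 (9.93 to 11.7). These are the libraries with the widest gap between short and long genes, 1.25 and 1.32 on the log2 scale.

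The other 10 were in the heart. Rgs10 was 13.2 in the Gnb5+/- ventricles of mouse 4 (5.35 to 7.59), where the length gap was 0.841, and 7.37 in the Gnb5-/- atria of mouse 5 (7.98 to 8.27). Rgs14 was 4.95 in the Gnb5+/- atria of mouse 4 (1.63 to 2.34), a library without a length gap (-0.0612). Rgs17 was 4.65 in the Gnb5-/- atria of mouse 14 (0.996 to 2.13) and 3.55 in its ventricles (1.18 to 1.38). Rgs2 was 164 in the Gnb5+/- atria of mouse 6 (60.6 to 94.2) and 62.4 in the Gnb5-/- ventricles of mouse 3 (27.6 to 36.0). Rgs4 was 21.3 in the Gnb5-/- atria of mouse 1 (10.4 to 13.8), Rgs5 was 354 in those of mouse 10 (213 to 256), and Rgs16 was 2.78 in the Gnb5-/- ventricles of mouse 12 (0.987 to 1.57).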

How the results depend on the processing

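The count of called members was 0 in every genotype comparison and interaction under each alternative run. Shares of all genes called are given above for the main fits and for DESeq2 only. A count of 0 under the other alternatives is therefore not read as a result about these genes. Over the 10 tissue pairs it was 89 of 100, and 90 without the low-count filter; with RLE factors and DESeq2 a total of 89 holds 1 call lost and 1 gained, given below. Among the recomputed fold changes, 741 kept their direction and their side of the threshold, 17 reversed, 3 passed the threshold and 2 fell short of it.

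Without mouse 12 the Gnb5-/- cerebellum values reversed to -0.0524 (Rgs2), 0.0045 (Rgs3), 0.0140 (Rgs8) and 0.119 (Rgs12) on the log2 scale. Without mouse 14 the cortex values reversed to -0.0204 (Rgs5) and 0.0126 (Rgs12), while Rgs3 (-0.0227), Rgs8 (-0.0542), Rgs10 (0.228) and Rgs17 (0.00711) kept their sign. Without mice 14 and 3, an alternative chosen after seeing the data, they reversed to 0.0050 (Rgs3), -0.0192 (Rgs5), 0.0307 (Rgs8), -0.0161 (Rgs10), 0.0569 (Rgs12), -0.0198 (Rgs14) and -0.0026 (Rgs17). The cortex value of Rgs5 was also below 0 with DESeq2 (-0.0097), RLE factors (-0.0047) and no low-count filter (-0.0018). All of these were small and none passed the threshold. The heart minus brain differences of Rgs2, Rgs3 and Rgs12 kept their sign under each alternative run, among them the fit without the cortex of mice 14 and 3 and the cerebellum of mouse 12, also chosen after seeing the data. In Gnb5+/+ mice, Rgs10 between atria and cerebellum turned to 0.00081 with no replicate block.

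Rgs14 between atria and ventricles (adjusted p = 0.0319 in edgeR) missed the threshold with RLE factors (0.0554) and DESeq2 (0.0762), and Rgs5 between cerebellum and hippocampus (0.0631) passed it with RLE factors (0.0205), no filter (0.0401) and DESeq2 (0.0221). For Rgs12 in Gnb5-/- ventricles the adjusted p ran from 0.249 (2 genotypes only) to 0.746 (replicate block, log2 fold change 0.42), and it was 0.259 without mouse 4, also chosen after seeing the data. Replicate numbers join different mice across genotypes, and same-numbered libraries did not deviate together (r from -0.242 to 0.147), so the block was read as no pairing, and it changed no call of a member. Low counts limit Rgs8 in the heart and Rgs14 in cerebellum.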
